A study of Mus musculus with 18 samples.

Results

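*Rbm20* and 9 other genes for tissue-restricted splicing regulators, namely *Rbfox1*, *Rbfox2*, *Rbfox3*, *Celf2*, *Mbnl1*, *Mbnl2*, *Mbnl3*, *Nova1* and *Esrp1*, were followed across malignant peripheral nerve sheath tumor (MPNST) cell lines of mice. They were taken from the read count table by gene name, and all 10 were found among its 35275 genes. The 10 were selected on values of these same data, namely the levels by line and the genotype contrast, which were known when the list was made, so their levels and fold changes are a description and no p-value is given for them. RNA-seq was run on 18 untreated cultures, 3 from each of 6 primary lines, and each line came from a separate tumor. In the *Nf1*/*p53* dKO lines (3 lines, genotype Nf1-/-;p53-/-) and the *Nf1*/*Cdkn2a* dKO lines (3 lines, genotype Nf1-/-;Cdkn2a-/-), the tumor suppressors were cut somatically by an adenovirus injected into the sciatic nerve of wild-type mice (129 Sv/Jae where the study compared the genotypes, with the strain and age behind each line not in the labels). The virus carried Cas9 under the CMV promoter, which is not restricted to one cell type, with guide RNAs against *Nf1* and *p53* or against *Nf1* and *Cdkn2a*. All 6 lines thus share the *Nf1* guides, and neither lines with *Nf1* loss alone nor normal Schwann cells were among the libraries used here. The comparison asked how loss of *Cdkn2a*, as against loss of *p53* (*Trp53*), differs in its transcripts.

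Splicing regulators of this kind bind short motifs in pre-mRNA and decide, by where they bind, whether a nearby exon is kept or skipped. Most belong to small families with overlapping motifs and distinct tissue ranges. RBM20 acts in striated muscle, RBFOX proteins chiefly in neurons and muscle, NOVA proteins chiefly in neurons, and ESRP1 in epithelia. The muscleblind proteins MBNL and the CELF proteins act as opposing regulators of muscle and brain exons. Read counts per gene give the abundance of the regulators' own transcripts and cannot show which exons or isoforms were used.

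Total counts were 19560535 to 28312207 per culture and 65206479 to 73065228 per line after the 3 cultures were summed. Levels are in CPM, counts scaled to library size after TMM normalization, and mean ± SD is over the 3 lines of a genotype. Because the tissue was bulk culture, fewer cells of a type and less RNA per cell cannot be told apart. Of the targeted genes, *Trp53* transcript was at 58.7 to 94.1 CPM in *Nf1*/*p53* dKO lines and at 185 to 247 CPM in *Nf1*/*Cdkn2a* dKO lines, while the line ranges of *Nf1* (27.7 to 70.0 against 12.7 to 38.3 CPM) and *Cdkn2a* (42.9 to 363 against 169 to 392 CPM) overlapped. Small Cas9 deletions need not lower a transcript, so these levels check the labels only in part. The labels call the cells mesenchymal, and the summed CPM of 10 mesenchymal markers was 9138 to 23427 in *Nf1*/*p53* dKO lines and 12137 to 18774 in *Nf1*/*Cdkn2a* dKO lines. Summed over 10 Schwann cell markers the level was 8.63 to 83.5 CPM in *Nf1*/*p53* dKO lines and 6.13 to 62.7 CPM in *Nf1*/*Cdkn2a* dKO lines, with *Ngfr* (to 64.3 CPM) and *Gap43* (to 59.6 CPM) the highest and *Sox10* at most 0.0990 CPM. Of these markers 8 were tested and 7 fitted lower in *Nf1*/*Cdkn2a* dKO lines. None had an adjusted p under 0.05 in edgeR, beside 1.8% of all tested genes. *Ngfr* was at 1.06, 64.3 and 0.526 CPM in *Nf1*/*p53* dKO lines 1, 2 and 3, so its lower fit rested on line 2. *Cdh19* was at 0.425, 3.90 and 0.138 CPM in those lines and had no read in *Nf1*/*Cdkn2a* dKO lines. It had enough counts for the fit only through the *Nf1*/*p53* dKO lines, which fixed its direction. The sum of 8 cardiac muscle markers was 4.48 to 21.6 CPM against 3.13 to 10.6 CPM, with *Tnnt2* reaching 20.7 CPM and *Myh6* and *Nppa* at most 0.0626 CPM.

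Paralogs share coding sequence, which matters for how reads were assigned between family members. The longest exact stretches common to the coding parts of 2 family members in GENCODE M21 transcripts (build GRCm38) are shown because neither the read length nor the counting tool is given in the sources used here. The letters are the sense strand, and every base is shared.

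*Rbfox1* and *Rbfox2*, 29 bases: accgtggtagagggccgtaaaatcgaggt

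*Rbfox1* and *Rbfox3*, 20 bases: caggatggattttatggtgc

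*Mbnl1* and *Mbnl2*, 26 bases: agagagaactgcaaatatcttcatcc

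*Mbnl1* and *Mbnl3*, 16 bases: tctgcatggattacat

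The remaining pairs shared 14 bases (*Rbfox2* and *Rbfox3*) and 15 bases (*Mbnl2* and *Mbnl3*). Over whole transcripts, with the untranslated parts, *Mbnl1* and *Mbnl3* shared a stretch of 26 bases, and the lengths of the other pairs stayed the same. A read that lies wholly inside such a stretch cannot be placed, and a longer read holds positions that differ between the paralogs.

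*Rbm20*, the striated muscle regulator best known for skipping titin exons, had transcripts in *Nf1*/*p53* dKO lines and very few in *Nf1*/*Cdkn2a* dKO lines. The gene lies at chr19:53677306-53867080 on the plus strand (GRCm38). It stood at 16.1, 8.50 and 22.0 CPM in *Nf1*/*p53* dKO lines 1, 2 and 3 and at 0.209, 0.303 and 0.328 CPM in *Nf1*/*Cdkn2a* dKO lines 1, 2 and 3. All *Nf1*/*p53* dKO lines were higher than all *Nf1*/*Cdkn2a* dKO lines, and no culture of one genotype reached the range of the other (7.18 to 23.9 CPM against 0.0980 to 0.603 CPM). Within the *Nf1*/*p53* dKO genotype the order was line 3 over line 1 over line 2, and the cultures of neighbouring lines in that order did not overlap. The 3 *Nf1*/*Cdkn2a* dKO lines overlapped in their cultures.

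In reads, *Rbm20* had 1249, 601 and 1592 counts in the 3 *Nf1*/*p53* dKO lines. The *Nf1*/*Cdkn2a* dKO lines had 13, 21 and 21 counts, with 2 to 14 in a culture and none at 0. The ratio of the summed reads, 3442 against 55 at the depths of the libraries, was 55.5 (95% counting interval 42.5 to 73.8, which covers counting error only and no spread between tumors). The genotype means were 15.5 ± 6.78 CPM and 0.280 ± 0.0631 CPM (SD, n = 3 lines each), a fitted log2 fold change of -5.78 ± 0.41 (SE) for *Nf1*/*Cdkn2a* dKO over *Nf1*/*p53* dKO. Per kb of merged exon *Rbm20* had 2.37, 1.25 and 3.24 CPM per kb in *Nf1*/*p53* dKO lines and 0.0307 to 0.0484 CPM per kb in the others. *Rbm20* overlaps the antisense gene *Gm16299*, which was at 0.204 ± 0.197 and 0.102 ± 0.162 CPM, and whether the counting used strand is not given in the sources used here. Genes on the opposite strand also overlap *Rbfox2*, *Rbfox3*, *Celf2*, *Mbnl2* and *Esrp1*.

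**Figure D1:**
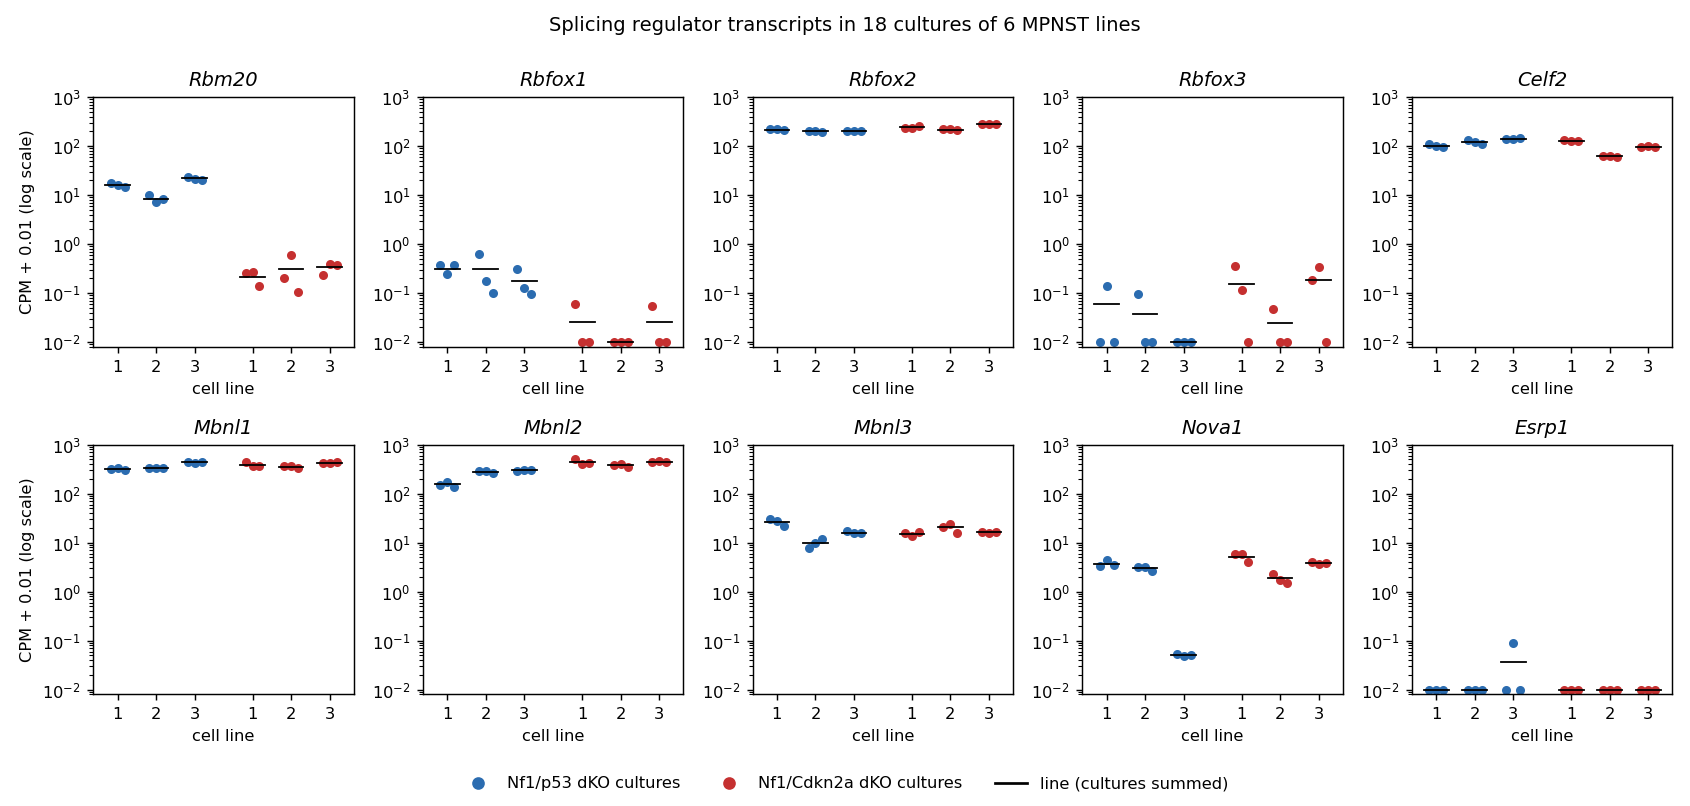
Levels of the 10 splicing regulators in CPM plus 0.01 (log axis) for each of the 18 cultures, by line 1 to 3 of each genotype, with points for cultures and black bars for the line after summing its 3 cultures. *Rbm20* separates the genotypes by 7.18 CPM or more against 0.603 CPM or less, *Rbfox2*, *Mbnl1* and *Mbnl2* stay between 138 and 511 CPM in every culture, and *Nova1* is low in 1 line, *Nf1*/*p53* dKO line 3.

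Markers of skeletal muscle, a tissue where *Rbm20* is typical, also differed in summed level. Over 10 markers they were at 86.0 to 486 CPM in *Nf1*/*p53* dKO lines and at 7.86 to 33.8 CPM in *Nf1*/*Cdkn2a* dKO lines, without overlap. *Myf5*, *Myod1* and *Des* had enough counts for the fit only through the *Nf1*/*p53* dKO lines, which fixed their direction. *Myf5*, a myogenic determination factor, had 5884 reads in *Nf1*/*p53* dKO lines and 1 read in the others (adjusted p = 0.00672, edgeR's quasi-likelihood test, Benjamini-Hochberg adjusted over 15207 genes), and this call was lost only without *Nf1*/*Cdkn2a* dKO line 1 of the 6 lines left out in turn (adjusted p = 0.0795). *Myod1*, the other early determination factor of the list, was at 1.75, 0.269 and 204 CPM in *Nf1*/*p53* dKO lines and had no read in *Nf1*/*Cdkn2a* dKO lines, and the line with the most *Rbm20* also had the most *Myod1*. *Chrna1* was at 27.8, 78.5 and 161 CPM in *Nf1*/*p53* dKO lines and at 27.2, 7.24 and 12.1 CPM in *Nf1*/*Cdkn2a* dKO lines. Other markers overlapped between genotypes, such as *Acta1* (4.86, 28.5 and 4.44 against 4.72, 0.577 and 3.61 CPM) and *Ckm* (1.43, 1.50 and 0.886 against 1.32, 0 and 0.0156 CPM). *Acta1* and *Ckm* were highest in *Nf1*/*p53* dKO line 2, the line of that genotype with the least *Rbm20*. *Myog* and *Pax7* did not exceed 1.07 CPM in any line. Of 8 cardiac muscle markers, 7 were under 1 CPM in every line, and the exception was *Tnnt2*. The part of muscle-like cells in the *Rbm20* difference was not tested.

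By the same rule of likeness for all genes, the 5 genes whose log2 CPM followed *Rbm20* most closely over the 18 cultures were *Hoxa11* (Pearson r = 0.987), *Vegfa* (0.986), *Hoxa11os* (0.985), *Irx2* (0.985) and *Hoxa9* (0.985), among 12277 genes with a mean of at least 1 CPM. The 18 cultures come from 6 lines and fall into 2 groups by genotype, so r over all of them mostly records the gap between the groups, and 79 genes had r of at least 0.95. Within the 9 *Nf1*/*p53* dKO cultures, which are 3 lines, r with *Rbm20* was 0.957 for *Hoxa11*, 0.836 for *Vegfa*, 0.976 for *Hoxa11os*, 0.803 for *Irx2* and 0.964 for *Hoxa9*. *Hoxa11* and *Hoxa9* are posterior homeobox genes that pattern limbs and trunk, and *Hoxa11os* overlaps *Hoxa11* on the other strand, so their reads may not be separate. *Hoxa11* was at 12.8, 3.69 and 21.7 CPM in *Nf1*/*p53* dKO lines and had no read in *Nf1*/*Cdkn2a* dKO lines, the same order of lines as *Rbm20*. It was picked for its likeness to *Rbm20*, so the shared order follows from that choice. *Hoxa11*, *Hoxa11os*, *Irx2* and *Hoxa9* had enough counts for the fit only through the *Nf1*/*p53* dKO lines, which fixed their direction. *Vegfa*, the endothelial growth factor, kept a higher level, with 157 to 203 CPM against 70.5 to 81.2 CPM.

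No tested gene around *Rbm20* was called lower, where called means an adjusted p under 0.05, as for 0.638% of all tested genes on the higher side and 1.16% on the lower. The window was chosen after the values were seen. Of 13 tested genes within 1000 kb on either side, 9 were fitted higher and 4 lower in *Nf1*/*Cdkn2a* dKO lines, and 1 was called higher. Their log2 fold changes ran from -1.50 to 2.91 (median 0.28, against -0.02 over all tested genes). *Smc3*, the cohesin subunit gene that ends upstream of *Rbm20*, was at 188 ± 43.0 and 193 ± 37.3 CPM. *Pdcd4*, on the other side, was at 21.0 ± 5.39 and 14.7 ± 7.11 CPM (log2 fold change -0.51 ± 0.40). The gene called higher was *Xpnpep1*, an aminopeptidase gene, at 130 ± 11.6 and 223 ± 14.0 CPM (log2 fold change 0.78 ± 0.13, adjusted p = 0.0479, edgeR's quasi-likelihood test). Its call was lost without any 1 line (adjusted p 0.0744 to 0.155), and also with no filter (0.0502) or raw total scaling (0.0612).

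**Figure D2:**
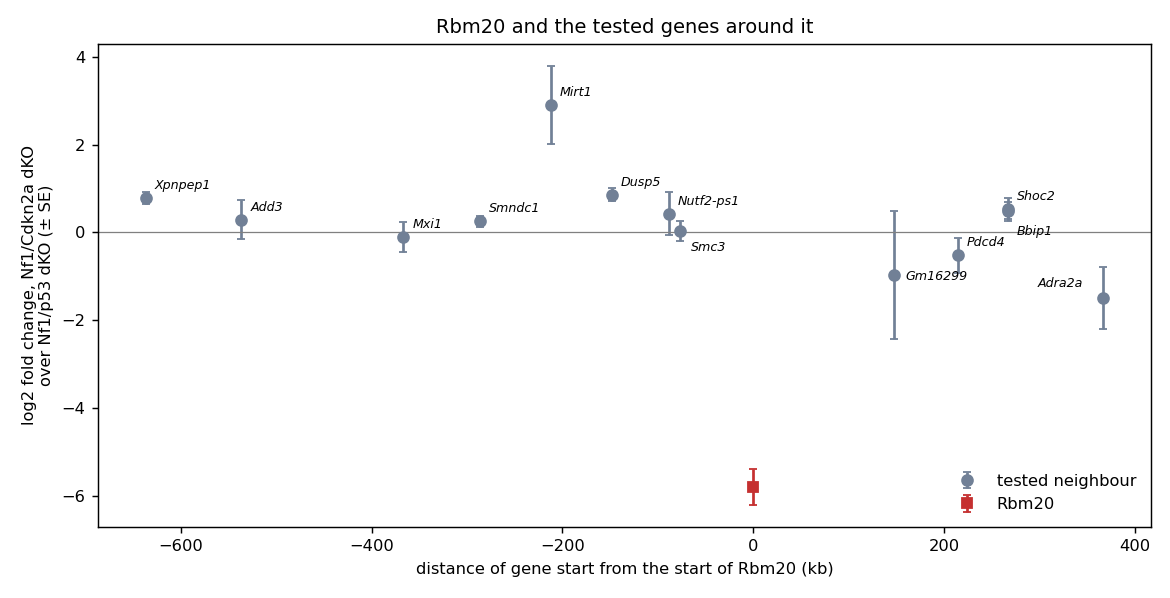
Log2 fold change (*Nf1*/*Cdkn2a* dKO over *Nf1*/*p53* dKO, ± SE, 3 lines per genotype) of *Rbm20* and the 13 tested genes within 1000 kb, by distance of the gene start from the start of *Rbm20* in kb. The neighbours lie between -1.50 and 2.91, and *Rbm20* at -5.78.

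The RBFOX proteins bind UGCAUG and regulate neuronal and muscle exons. Their genes were represented almost wholly by *Rbfox2* in these lines. *Rbfox2*, the most widely expressed member (chr15:77078990-77307004, minus strand), stood at 218, 199.9 and 203 CPM in *Nf1*/*p53* dKO lines and at 248, 219 and 286 CPM in *Nf1*/*Cdkn2a* dKO lines. The line values did not overlap between genotypes, with the *Nf1*/*Cdkn2a* dKO lines higher, but cultures of *Nf1*/*Cdkn2a* dKO line 2 overlapped those of *Nf1*/*p53* dKO line 1. The means were 207 ± 9.44 and 251 ± 33.5 CPM, a log2 fold change of 0.28 ± 0.15. Per kb of exon, *Rbfox2* made up 99.7 to 99.8% of the reads of the family in *Nf1*/*p53* dKO lines and 99.9% or more in *Nf1*/*Cdkn2a* dKO lines.

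*Rbfox1*, the neuronal and muscle member (chr16:5885355-7411526, plus strand), was near the limit of detection. It had 24, 21 and 12 reads in *Nf1*/*p53* dKO lines and 1, 0 and 1 reads in *Nf1*/*Cdkn2a* dKO lines, where 7 of the 9 cultures had none. These are 0.309, 0.297 and 0.166 CPM against at most 0.0160 CPM, and a count of 0 allows up to 3 reads. No *Nf1*/*Cdkn2a* dKO line reached the lowest *Nf1*/*p53* dKO line, and the ratio of 57 to 2 reads was 25.3 with a counting interval of 6.68 to 214. The fitted log2 fold change was -4.42 ± 0.96, which depends on the prior count at such levels. The reads were few beside those of *Rbfox2*, with which *Rbfox1* shares the 29-base stretch shown above.

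*Rbfox3* (chr11:118489762-118911597, minus strand), which encodes the neuronal nuclear antigen NeuN, had 4, 2 and 0 reads in *Nf1*/*p53* dKO lines and 9, 1 and 11 in *Nf1*/*Cdkn2a* dKO lines. Its line values overlapped between genotypes, 11 cultures had no read, and it had too few counts for the fit. The ratio of 21 to 6 reads, *Nf1*/*Cdkn2a* dKO over *Nf1*/*p53* dKO, was 3.95 (counting interval 1.54 to 12.0). Neuronal markers summed to 82.4 to 136 CPM in *Nf1*/*p53* dKO lines and to 61.0 to 126 CPM in *Nf1*/*Cdkn2a* dKO lines. Of these markers *Stmn2* (31.2 to 97.1 CPM over the 6 lines) and *Tubb3* (11.5 to 35.8 CPM) had the highest means. Of the 8 neuronal markers 5 were tested, 1 fitted higher and 4 lower in *Nf1*/*Cdkn2a* dKO lines. In edgeR 0 were called and 2 had an unadjusted p under 0.05, beside 1.8% and 22.4% of all tested genes. *Dcx*, a marker of young neurons, had no read in any line.

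Of the 3 muscleblind genes, *Mbnl2* had the largest difference between genotypes. *Mbnl1* (chr3:60472830-60629750, plus strand), the main muscleblind of muscle, was at 319, 333 and 439 CPM in *Nf1*/*p53* dKO lines against 393, 358 and 432 CPM in *Nf1*/*Cdkn2a* dKO lines. The genotypes overlapped (364 ± 65.3 and 394 ± 36.9 CPM, log2 fold change 0.12 ± 0.17), and every line overlapped in its cultures with the next in order. The sign of this difference depended on the scaling, since scaling to raw total counts gave -0.02.

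*Mbnl2* (chr14:120275669-120431697, plus strand), the member most important in brain, was at 154, 280 and 303 CPM in *Nf1*/*p53* dKO lines and at 447, 384 and 448 CPM in *Nf1*/*Cdkn2a* dKO lines. All *Nf1*/*Cdkn2a* dKO lines were above all *Nf1*/*p53* dKO lines, and no culture crossed between genotypes (138 to 311 CPM against 346 to 511 CPM). The means were 246 ± 80.2 and 427 ± 36.7 CPM, a log2 fold change of 0.80 ± 0.27. *Nf1*/*p53* dKO line 1 was the lowest of the 6, and without it the log2 fold change was 0.55.

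*Mbnl3* (chrX:51117269-51206532, minus strand), the least abundant muscleblind, which is linked to muscle precursors and placenta, was at 26.6, 9.86 and 16.1 CPM in *Nf1*/*p53* dKO lines against 15.3, 20.4 and 16.5 CPM in *Nf1*/*Cdkn2a* dKO lines. The highest and the lowest line were both *Nf1*/*p53* dKO, and the means were 17.5 ± 8.46 and 17.4 ± 2.70 CPM (log2 fold change -0.01 ± 0.37).

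The ratio of *Mbnl2* to *Mbnl1* reads is taken within a library and does not depend on scaling between libraries. It was 0.482, 0.841 and 0.690 in *Nf1*/*p53* dKO lines and 1.14, 1.07 and 1.04 in *Nf1*/*Cdkn2a* dKO lines (0.671 ± 0.180 against 1.08 ± 0.0495). Each *Nf1*/*p53* dKO line was below each *Nf1*/*Cdkn2a* dKO line in this ratio, which compares libraries and not the 2 genes, since they differ in length. Per kb of exon, *Mbnl2* took 39.0 to 55.2% of the muscleblind reads in *Nf1*/*p53* dKO lines and 59.9 to 62.1% in *Nf1*/*Cdkn2a* dKO lines, and *Mbnl1* took 42.1 to 51.8% and 35.0 to 37.0%. Shares of *Mbnl3* were 2.67 to 9.23% and 2.91 to 4.37%, and overlapped.

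**Figure D3:**
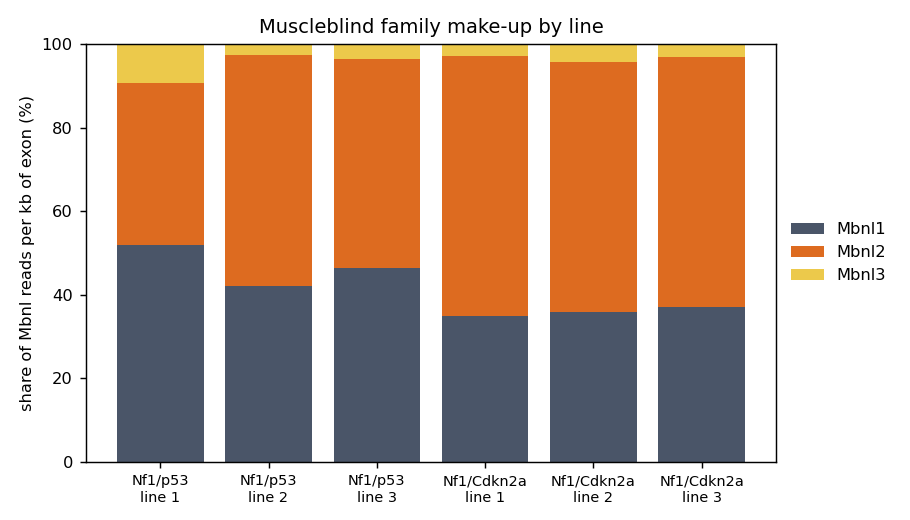
Share (%) of muscleblind reads per kb of merged exon taken by *Mbnl1*, *Mbnl2* and *Mbnl3* in each of the 6 lines, as stacked bars that add to 100. *Mbnl2* is at 39.0 to 55.2% in *Nf1*/*p53* dKO lines and at 59.9 to 62.1% in *Nf1*/*Cdkn2a* dKO lines.

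*Celf2* (chr2:6539694-7509563, minus strand), a CELF family regulator that acts against muscleblind proteins on many developmental exons, was at 102, 121 and 141 CPM in *Nf1*/*p53* dKO lines and at 129, 62.5 and 97.2 CPM in *Nf1*/*Cdkn2a* dKO lines. The genotypes overlapped, and *Nf1*/*Cdkn2a* dKO line 2 was below the other 5 lines in all its cultures. The means were 121 ± 19.5 and 96.1 ± 33.1 CPM, a log2 fold change of -0.34 ± 0.28. Of the spread of *Celf2* in log2 CPM within genotypes, 96.7% was between lines and the remainder between cultures, against a median of 76.1% over all tested genes.

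*Nova1* (chr12:46694517-46818929, minus strand), a KH-domain regulator of neuronal exons first known as an autoantigen, overlapped between genotypes and was low in 1 line. It was at 3.72, 3.00 and 0.0415 CPM in *Nf1*/*p53* dKO lines against 5.21, 1.88 and 3.85 CPM in *Nf1*/*Cdkn2a* dKO lines. In reads these were 289, 212 and 3 against 325, 130 and 246, and *Nf1*/*p53* dKO line 3 had 1 read in each of its cultures. *Nf1*/*p53* dKO lines 1 and 2 together had 501 reads, a ratio to line 3 of 81.4 (counting interval 27.7 to 396). The fitted genotype difference was 0.69 ± 1.18 and was 0.12 without that line. *Nova1* had the largest share of its within-genotype spread between lines of the members, 98.9%.

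*Esrp1* (chr4:11331933-11386783, minus strand), the epithelial regulator, was not detected at this depth in 17 of 18 cultures. It had 2 reads in all, both in 1 culture of *Nf1*/*p53* dKO line 3, and was not tested. Epithelial markers were uneven, with a summed level of 4.23 to 741 CPM in *Nf1*/*p53* dKO lines and of 9.77 to 612 CPM in *Nf1*/*Cdkn2a* dKO lines. The simple keratin genes *Krt8* and *Krt18* reached 601 and 199 CPM. They were at 0.484 and 0.747 CPM in *Nf1*/*p53* dKO line 3 and at 0.954 and 7.01 CPM in *Nf1*/*Cdkn2a* dKO line 3. Of the 10 markers, 7 were under 1 CPM in every line.

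Compared per kb of merged exon, and averaged over the 6 lines, the order of the members was *Rbfox2* (28.1 CPM per kb), *Mbnl2* (28.0), *Mbnl1* (20.2), *Celf2* (4.20), *Mbnl3* (2.00), *Rbm20* (1.17), *Nova1* (0.337), *Rbfox1* (0.0305), *Rbfox3* (0.0118) and *Esrp1* (0.00073). The merged exons hold every annotated isoform, so these levels are low estimates where a short isoform prevails. At least 1 CPM in every line was reached by 5 members, *Rbfox2*, *Celf2* and the 3 muscleblind genes.

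Of the 10 members 8 had enough counts for the fit, *Rbfox1* only through the *Nf1*/*p53* dKO lines. Of these 8, 1 was called in the genotype contrast (*Rbm20*, lower in *Nf1*/*Cdkn2a* dKO lines) and 0 were called higher, beside 1.8% of all 15207 genes called in either direction, 1.16% lower and 0.638% higher. With this contrast known when the members were listed, nothing is read from that count. The fitted values were above 0 for 4 members and under 0 for 4, with a median of 0.05 against -0.02 over all genes. The genotypes' lines were separate for 4 members, *Rbfox2* and *Mbnl2* higher and *Rbm20* and *Rbfox1* lower, where 31.4% of all tested genes showed such a separation.

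**Figure D4:**
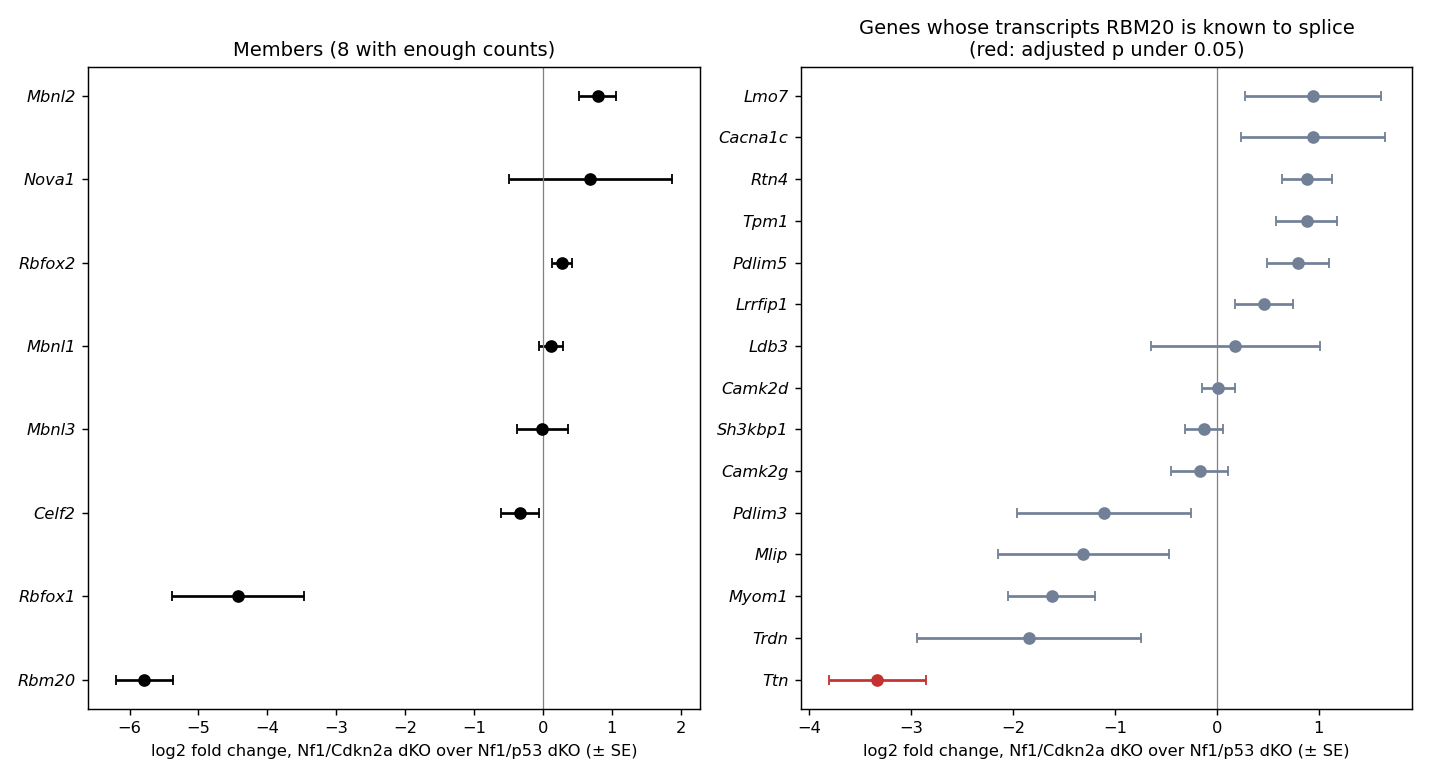
Log2 fold change (*Nf1*/*Cdkn2a* dKO over *Nf1*/*p53* dKO, ± SE, 3 lines per genotype) of the 8 members with enough counts, left, and of 15 tested genes whose transcripts RBM20 is known to splice, right. Members run from -5.78 (*Rbm20*) to 0.80 (*Mbnl2*), and *Ttn* (-3.33), in red, is called at an adjusted p under 0.05.

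Among genes whose transcripts RBM20 is known to splice, gene-level abundance moved in both directions. Of 18 listed genes 17 were tested, 9 fitted higher and 8 lower in *Nf1*/*Cdkn2a* dKO lines (median 0.01, against -0.02 over all genes), with 1 called higher, 1 called lower and 7 at an unadjusted p under 0.05. Over all 15207 genes 1.8% were called and 22.4% had an unadjusted p under 0.05. *Ttn*, encoding the giant sarcomere spring titin, was at 13.9, 18.3 and 23.9 CPM in *Nf1*/*p53* dKO lines and at 3.18, 0.938 and 1.47 CPM in *Nf1*/*Cdkn2a* dKO lines. *Ttn* fell, with no overlap between genotypes (18.7 ± 5.03 and 1.86 ± 1.17 CPM, log2 fold change -3.33 ± 0.48, adjusted p = 0.0432, edgeR's quasi-likelihood test). Like *Rbm20* it was highest in *Nf1*/*p53* dKO line 3, but its lowest *Nf1*/*p53* dKO line was line 1 and not line 2. The skeletal muscle markers given above were likewise higher in sum in *Nf1*/*p53* dKO lines, and their part was not tested.

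*Rtn4*, *Tpm1* and *Pdlim5*, for a reticulon, a tropomyosin and a Z-disc linker, had log2 fold changes of 0.88 ± 0.25, 0.88 ± 0.30 and 0.80 ± 0.30, and *Myom1*, for a sarcomere M-band protein, -1.62 ± 0.42, none past the threshold in edgeR on the 6 lines. DESeq2 on the 6 lines called *Rtn4* and *Myom1*, and limma-voom, fitted to all 18 cultures with a random line effect, called *Rtn4*, *Tpm1* and *Pdlim5*. *Camk2d*, a calcium-dependent kinase gene whose exons RBM20 selects in heart, was at 133 ± 13.9 and 134 ± 20.3 CPM. *Ryr2*, the cardiac calcium release channel, was the gene not tested and reached at most 0.0969 CPM in a line. The call of *Ttn* was lost when any 1 of the 6 lines was left out (adjusted p 0.0629 to 0.126, edgeR).

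Of 30 other splicing regulators 24 were tested, 10 fitted higher and 14 lower (median -0.06). The list mixes tissue-restricted genes with genes abundant in every line, such as *Ptbp1* and *Elavl1*, and 10 were under 1 CPM in every line. In edgeR 0 were called higher, 2 were called lower and 5 had an unadjusted p under 0.05, beside the same 1.8% and 22.4% of all genes. *Celf4*, a CELF gene of excitatory neurons, was at 45.8, 51.0 and 29.7 CPM in *Nf1*/*p53* dKO lines and at 6.02, 10.7 and 12.8 CPM in *Nf1*/*Cdkn2a* dKO lines. It fell without overlap (42.2 ± 11.1 and 9.85 ± 3.48 CPM, log2 fold change -2.10 ± 0.33, adjusted p = 0.0465, edgeR's quasi-likelihood test). *Khdrbs2*, encoding the STAR-domain protein SLM1 of brain, had 567 reads in *Nf1*/*p53* dKO lines, at 1.62, 0.651 and 5.47 CPM, and 1 read in *Nf1*/*Cdkn2a* dKO lines. That is a ratio of 503 with a counting interval of 89.9 to 19896, and the gene fell (adjusted p = 0.0440, edgeR's quasi-likelihood test), having passed the count filter only through the *Nf1*/*p53* dKO lines. Both calls were lost without any 1 line (adjusted p 0.0612 to 0.139 for *Celf4* and 0.0573 to 0.144 for *Khdrbs2*).

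*Srrm4*, an activator of neuronal microexons, had the highest fitted value of this list, 1.40 ± 1.32 (adjusted p = 0.574, edgeR), with 0.0415 to 1.61 CPM in *Nf1*/*p53* dKO lines and 0.176 to 4.27 CPM in *Nf1*/*Cdkn2a* dKO lines. Of the called genes' relatives, *Khdrbs3* was at 113 ± 32.3 and 48.2 ± 12.2 CPM (log2 fold change -1.24 ± 0.27), past the threshold in DESeq2 on the 6 lines and in limma-voom but not in edgeR (adjusted p = 0.0709). *Celf1* was at 179 ± 8.32 and 173 ± 31.6 CPM and *Khdrbs1* at 183 ± 23.9 and 187 ± 12.0 CPM. *Ptbp1*, the repressor of neuronal exons, was at 409 ± 25.7 and 489 ± 48.9 CPM, and its neuronal paralog *Ptbp2* at 62.2 ± 16.6 and 36.5 ± 6.79 CPM (log2 fold changes 0.26 ± 0.14 and -0.77 ± 0.24). Neither passed the threshold in edgeR, and limma-voom called *Ptbp2*. *Celf1*, *Khdrbs1*, *Khdrbs3*, *Ptbp1* and *Ptbp2*, like *Rtn4*, *Tpm1*, *Pdlim5*, *Myom1*, *Camk2d* and *Ryr2*, were chosen after their values were seen.

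Of 36 SR and hnRNP splicing factors, which recognise exons and introns, 35 were tested, 19 fitted higher and 16 lower (median 0.02). *Srsf12*, the gene not tested, was at most 0.297 CPM in a line. edgeR called 0, with 3 at an unadjusted p under 0.05, beside 1.8% and 22.4% of all genes. DESeq2 on the 6 lines called 1, *Pcbp2*, beside 2055 of 17401 genes. limma-voom called 2, *Srsf5* and *Pcbp2*, beside 2173 of 13110 genes. The highest fitted value was that of *Srsf5*, an SR protein gene, at 172 ± 40.3 and 271 ± 20.9 CPM (log2 fold change 0.66 ± 0.20, adjusted p = 0.128, edgeR). The lowest was that of *Pcbp2*, a poly(C)-binding protein gene, at 273 ± 40.6 and 160 ± 19.8 CPM (-0.77 ± 0.17, adjusted p = 0.0713, edgeR).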

How the data were processed

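For 18 libraries, 3 platings of each of 6 lines, the authors deposited whole-number read counts by gene, not normalized. The submitters' processing notes name CASAVA, STAR 2.5, GRCm38/mm10 and DESeq2 1.14.1, and the counting tool, annotation, strand setting and read length are not given in the sources used here. Counts were added up within each line, whose 3 cultures have 1 tumor of origin, and p-values measure the spread between 3 lines per genotype. Genes passed filterByExpr (minimum count 10, minimum total 15), were scaled by TMM and were compared with edgeR 4.0.16's quasi-likelihood test, two-sided, with Benjamini-Hochberg adjustment over 15207 genes and a threshold of 0.05 (R 4.3.3). Log2 CPM used a prior count of 2. Ratios of reads carry exact binomial 95% intervals. No source mentions molecular identifiers, so intervals and the floor of 3 counts cover counting error only. Coordinates and merged exon lengths are from GENCODE M21 (GRCm38), which holds 34490 of the 35275 identifiers.

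The 10 members and the lists were chosen with earlier results of these data known. Named genes were the members, in each list every called gene and the highest and lowest fitted, the 5 genes most correlated with *Rbm20*, the targeted genes and leading markers. A few genes of the lists are counted but not reported singly. Others are said to be chosen after their values were seen. Alternatives were DESeq2 1.42.0 or its size factors, no filter, the 18 cultures as separate samples, limma-voom (limma 3.58.1) with the line as a random effect, replicate blocks, and each line left out. DESeq2 on 18 cultures and scaling to raw totals were added after seeing the data. Cultures of 1 line differed by 3.57 to 29.2 times the sampling noise (chi-square per degree of freedom), so none was a duplicate. The steps were tested on simulated data. Plots used Python 3.11.15 with matplotlib 3.10.9.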

Additional observations from a re-analysis of the deposited data

How the results depend on the processing

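Over 15 alternatives, 116 of 117 recomputed log2 fold changes of the members stayed within 1 SD of the lines. The exception was *Rbfox1* without *Nf1*/*Cdkn2a* dKO line 2, at -3.87. That SD is the gene's own log2 spread between lines, 2.34 for *Nova1*, so a gene that varies much between lines rarely leaves it. *Rbm20* ran from -6.07 to -5.44, *Mbnl2* from 0.55 to 0.98 and *Nova1* from 0.12 to 1.81. *Mbnl1* ran from -0.02 to 0.28 and *Mbnl3* from -0.28 to 0.42, so both took either sign. *Rbfox1* and *Khdrbs2* were not tested in the edgeR and limma-voom fits on 18 cultures, where the filter removed them.

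Counts of calls moved with the unit and the tool. Calls over all tested genes were 274 of 15207 as reported. They came to 2055 of 17401 with DESeq2 on the 6 lines, 6096 of 13110 with edgeR on the 18 cultures and 2173 of 13110 with limma-voom. Alternatives added after seeing the data gave 7171 of 18448 with DESeq2 on the 18 cultures and 423 of 15207 with raw total scaling. No filter gave 411 of 23859. Treating cultures of a tumor as separate samples counts each tumor 3 times. In the same order, calls among the members that each fit tested were 2, 3, 2, 4 and 2. Among the RBM20-spliced genes they were 4, 7, 6 and 9 (raw scaling left 2), and among SR and hnRNP factors 1, 7, 2 and 8. Calls over all genes rose in the same fits, so nothing about the members or the lists is read from these counts. The other splicing regulators had 9 calls with edgeR and 10 with DESeq2 on the 18 cultures. Raw total scaling moved the median of all genes from -0.02 to -0.16 and the calls from 97 higher and 177 lower to 86 and 337.

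The line numbers did not pair the tumors (correlation of deviations -0.13 to -0.08), nor did the culture numbers (-0.05 to 0.08). With the line number as a replicate block, edgeR called 0 genes overall (2740 at an unadjusted p under 0.05), 0 members, 0 RBM20-spliced genes and 0 other regulators. With the culture number as a replicate block on the 18 cultures it called 5681 of 13110 tested genes. Among them were 3 members, 7 RBM20-spliced genes, 6 SR and hnRNP factors and 9 other regulators.

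Leaving out 1 line gave 0 to 172 calls over all genes. The lowest was without *Nf1*/*Cdkn2a* dKO line 1 (2668 at an unadjusted p under 0.05), then 2 without line 2 and 23 without line 3 of that genotype, and 172, 27 and 107 without *Nf1*/*p53* dKO lines 1, 2 and 3. Members called were 0 to 1, with *Rbm20* called in the 3 of these fits that kept all *Nf1*/*Cdkn2a* dKO lines and not in the other 3, and the lists of RBM20-spliced genes and of other regulators had 0 calls in every one. Depth limited *Rbfox1*, *Rbfox3* and *Esrp1*, with at most 24 reads in a line. The counts hold no exon usage, so splicing itself was not measured here.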
